A study of Mus musculus with 6 samples.

Results

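The non-clustered protocadherins examined here were Pcdh1, Pcdh7, Pcdh8, Pcdh9, Pcdh10, Pcdh15, Pcdh17, Pcdh19 and Pcdh20. They were listed by symbol, as genes of the protocadherin family that lie outside the large protocadherin gene clusters, with earlier results of these data known. They are 9 of the 55401 genes in the count files. Pcdh11x, Pcdh12 and Pcdh18 also lie outside the clusters but were not among the 9, and are given below. All 9 passed the filter on low counts that left 19969 genes for testing. Each was measured in the dorsal hippocampus of 4-month-old wild-type (WT) mice, littermates of the Ts65Dn trisomic line on a B6EiC3 background. The 3 Control-ASO samples came from mice given a scrambled antisense oligonucleotide, and the 3 Snhg11-ASO samples from mice given an oligonucleotide against the long noncoding RNA Snhg11, which directs RNase H to cleave it. Both oligonucleotides were injected into the dorsal dentate gyrus at 50 µg per hemisphere and the tissue was taken 3 days later, so the cells that took up the oligonucleotide were sequenced together with the rest of the dorsal hippocampus. The comparison asks which transcripts differ in level when Snhg11 is depleted.

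Protocadherins are cell adhesion proteins of the cadherin superfamily, with extracellular cadherin repeats that bind protocadherins on neighbouring cells. The δ1 members Pcdh1, Pcdh7 and Pcdh9 carry a conserved cytoplasmic motif that can bind protein phosphatase 1. The δ2 members Pcdh8, Pcdh10, Pcdh17 and Pcdh19 carry a motif, shared with some other protocadherins, that recruits the WAVE complex, a regulator of branched actin. In the brain they are known for roles in axon growth, synapse formation and synapse removal, and several are targets of neuronal activity. Pcdh15 is set apart in sequence and is best known from the inner ear, where it pairs with cadherin 23 to form the tip link that gates the transduction channel of hair cells. In the brain its transcript is also known from oligodendrocyte precursors and some neurons.

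The sequences upstream of Pcdh15 and Pcdh8 are shown because these members had the lowest and the highest fold change of the 9. They are the 250 bases before the transcript start in the RefSeq annotation of GRCm38.p6, read 5′ to 3′ on the strand of the gene, with TATAAA in capitals. The Pcdh15 stretch lies at chr10:73821617-73821866 on the plus strand and the Pcdh8 stretch at chr14:79771313-79771562 on the minus strand.
Pcdh15: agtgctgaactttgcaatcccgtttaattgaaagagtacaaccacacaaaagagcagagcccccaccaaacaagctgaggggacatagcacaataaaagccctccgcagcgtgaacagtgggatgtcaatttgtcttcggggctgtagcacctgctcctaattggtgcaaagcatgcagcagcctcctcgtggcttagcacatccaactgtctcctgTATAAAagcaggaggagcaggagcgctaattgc
Pcdh8: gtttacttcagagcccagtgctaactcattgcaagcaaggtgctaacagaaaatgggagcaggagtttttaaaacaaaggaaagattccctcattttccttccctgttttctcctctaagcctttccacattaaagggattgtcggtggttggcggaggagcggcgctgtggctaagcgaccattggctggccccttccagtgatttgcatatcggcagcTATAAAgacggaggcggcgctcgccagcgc

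RefSeq sequences matched 8 of the 9 members, all but Pcdh1. In the GENCODE annotation, all 250 bases of the Pcdh7 window and 113 of those of Pcdh10 lie in exons of either strand. TATAAA, the core of the TATA box, was found in 2 of the 8, beginning 33 bases before the start of Pcdh15 and 30 bases before that of Pcdh8, on the strand of the gene. Of all 32851 promoters in the table, 12.4% hold these letters on either strand within the same 250 bases. GGGCGG, the core of the GC box, was in 3 of the 8 (Pcdh10, Pcdh17 and Pcdh19) and in 32.7% of all promoters. TGACG, the core of the cyclic AMP response element, was in Pcdh9 and Pcdh10 and in 17.8% of all promoters. The full palindrome TGACGTCA, which contains TGACG, was in none of the 8 and in 1.55% of all promoters, and the E-box CACGTG was in none of the 8 and in 6.02%. Letters absent from this window say nothing about more distant sites.

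The 6 libraries held between 28951250 and 43997537 read pairs assigned to genes. Snhg11 itself was counted at 551, 436 and 209 CPM (counts per 1000000 counts on genes, after scaling) in Control-ASO and at 139, 65.4 and 69.4 CPM in Snhg11-ASO, with no overlap. Snhg11-ASO replicate 1 stood apart from the rest: its Spearman correlation across genes was 0.955 to 0.959 with the 5 other libraries, against 0.979 to 0.991 among the other 10 pairs. Members' values that change direction or differ by over 1.5 times without it are given both ways. By the study's methods the RNA came from 3 injected mice per group and the labels do not tie a library to an animal. In a bulk sample, fewer cells of a type and less RNA per cell cannot be told apart.

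In Control-ASO the members spanned a wide range of levels per length. Pcdh9 was the most abundant at 38.7 ± 4.68 RPKM (CPM divided by the merged exon length in kilobases, mean ± SD, n = 3), followed by Pcdh20 at 30.4 ± 6.17 and Pcdh1 at 22.5 ± 4.37 RPKM. Then came Pcdh7 at 12.9 ± 2.07, Pcdh19 at 8.94 ± 2.24, Pcdh17 at 8.69 ± 2.04, Pcdh10 at 8.17 ± 1.06 and Pcdh8 at 7.40 ± 1.92 RPKM. Pcdh15 was the least abundant at 1.10 ± 0.339 RPKM, with a merged exon length of 23773 bases pooled over 41 annotated transcripts. In CPM, without division by length, its control range of 16.9 to 31.0 overlapped that of Pcdh8, 25.3 to 42.7. The RPKM ranges of neighbours in this order overlapped, except between Pcdh1 and Pcdh7 and between Pcdh8 and Pcdh15. The members were counted in the same libraries, so overlapping ranges do not show that neighbours were equal. Within each control library Pcdh20 was above Pcdh1 and Pcdh7 above Pcdh19, while the order of the other overlapping neighbours changed between libraries. Some members farther apart had separate ranges. Every control value of Pcdh9 was above every one of Pcdh1, and every one of Pcdh7 above those of Pcdh10 and Pcdh8.

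Between the groups the family did not move as one. The values of Pcdh15 after Snhg11 depletion all lay below those of the controls, Pcdh7 and Pcdh10 were lower on average with overlapping groups, and the largest higher value, that of Pcdh8, rested on 1 library. 0 of the 9 members passed a p of 0.05 in edgeR's quasi-likelihood test after adjustment by the Benjamini-Hochberg method across the 19969 genes, and 0% of all genes tested did (smallest adjusted p 0.237). At an unadjusted p under 0.05 in the same test, 2 members were lower, Pcdh7 and Pcdh15, against 4.43% of all genes lower, and 0 members were higher, against 3.68%. DESeq2 called 1 of the 9, Pcdh15, lower at an adjusted p of 0.05, against 0.885% of all genes it tested, and called 0 members higher, against 0.551%. The groups did not overlap for 1 member lower in Snhg11-ASO, where 7.7% of all genes showed this, and for 0 members higher, where 7.73% did. Without Snhg11-ASO replicate 1, 3 members were lower without overlap (Pcdh7, Pcdh10 and Pcdh15), against 13.5% of all genes. Of the 9 log2 fold changes, 6 were below 0 and 3 above, with a median of -0.13 against 0.01 over all genes.

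**Figure D1:**
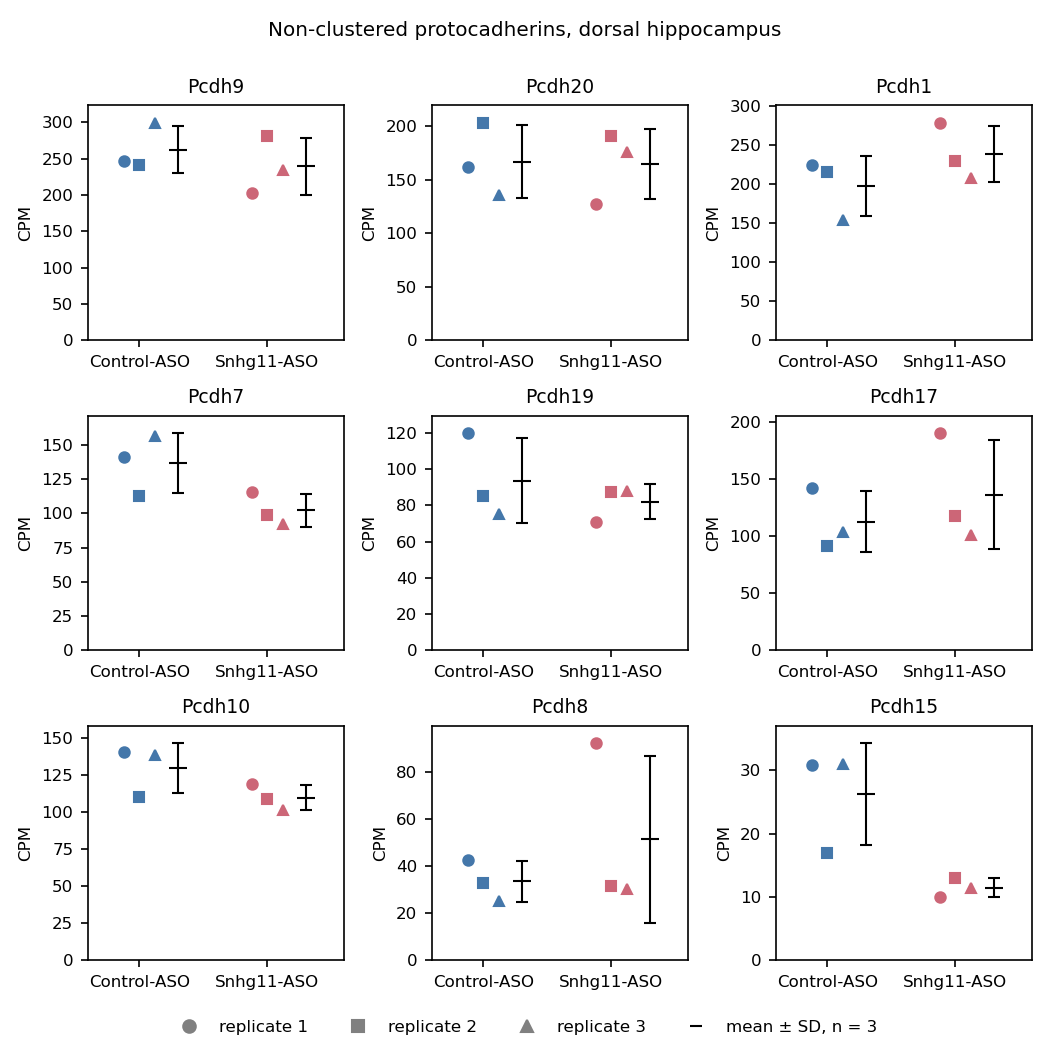
Level of each member in CPM (linear axis from 0) in the 3 Control-ASO and 3 Snhg11-ASO samples, with the marker shape giving the replicate number and the bar the mean ± SD, n = 3. Pcdh15 sat between 16.9 and 31.0 CPM in Control-ASO and between 9.97 and 13.0 CPM in Snhg11-ASO, and the high Snhg11-ASO point of Pcdh8, at 92.2 CPM, is replicate 1.

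Among the δ1 members, Pcdh7 was the one with the larger difference. Pcdh7 (ENSMUSG00000029108, chr5:57717967-58133230, plus strand), an adhesion protein of neurons, was at 141, 113 and 156 CPM in Control-ASO and at 116, 98.8 and 92.4 CPM in Snhg11-ASO. The lowest control sample lay just below the highest Snhg11-ASO sample, replicate 1, so the groups overlapped by that pair alone. The means were 137 ± 21.9 and 102 ± 12.1 CPM (SD, n = 3), a log2 fold change of -0.42 (SE 0.15). This did not pass the adjustment (edgeR adjusted p = 0.558). Without Snhg11-ASO replicate 1 the log2 fold change was -0.52, the groups separated, and DESeq2 called the gene at an adjusted p of 0.0448, whereas with all samples its DESeq2 adjusted p was 0.299. An antisense transcript, 4932441J04Rik, shares 2235 exonic bases with Pcdh7 on the other strand and was counted at 58 to 70 read pairs in every library.

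Pcdh9 (ENSMUSG00000055421, chr14:93013410-93890679, minus strand), which is expressed widely in neurons and in oligodendrocytes, was at 246, 242 and 299 CPM in Control-ASO and at 203, 280 and 235 CPM in Snhg11-ASO. The samples of both groups intermingled. Its log2 fold change was -0.13 (SE 0.15, edgeR adjusted p = 0.836), or -0.03 without Snhg11-ASO replicate 1. Pcdh1 (ENSMUSG00000051375, chr18:38185914-38212053, minus strand), known from epithelial and endothelial cells as well as brain, was at 225, 216 and 154 CPM in Control-ASO and at 279, 229 and 208 CPM in Snhg11-ASO. Control-ASO replicate 3 was the lowest and Snhg11-ASO replicate 1 the highest of an otherwise overlapping set, with a log2 fold change of 0.27 (SE 0.18, edgeR adjusted p = 0.729), or 0.14 without that library. The further δ1 gene Pcdh11x was at 26.7, 16.0 and 26.1 CPM in Control-ASO and at 17.9, 14.1 and 14.1 CPM in Snhg11-ASO, a log2 fold change of -0.58 (SE 0.22, edgeR adjusted p = 0.583). Its groups overlapped through the low Control-ASO replicate 2, the library in which Pcdh15 and Pcdh7 were also lowest among the controls.

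Of the δ2 members, Pcdh8 and Pcdh17 were higher on average in Snhg11-ASO, but in both cases through 1 library. Pcdh8 (ENSMUSG00000036422, chr14:79766775-79771312, minus strand), also known as arcadlin, is a synaptic protocadherin induced by neuronal activity. It was at 42.7, 32.8 and 25.3 CPM in Control-ASO and at 92.2, 31.4 and 30.3 CPM in Snhg11-ASO. Snhg11-ASO replicate 1 was above all others, while the other 2 Snhg11-ASO samples lay within the control range. The log2 fold change was 0.61 (SE 0.45, edgeR adjusted p = 0.759) with all samples and -0.12 (adjusted p = 0.875) without that library. Pcdh17 (ENSMUSG00000035566, chr14:84443563-84539002, plus strand), which acts at synapses and in the collective extension of axons, was at 143, 91.9 and 104 CPM in Control-ASO and at 191, 118 and 101 CPM in Snhg11-ASO. Replicate 1 was the highest sample of each group. Its log2 fold change of 0.27 (SE 0.27, edgeR adjusted p = 0.813) became -0.04 (adjusted p = 0.958) without Snhg11-ASO replicate 1.

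Pcdh10 and Pcdh19 lay slightly lower on average. Pcdh10 (ENSMUSG00000049100, chr3:45378398-45435623, plus strand), a protocadherin that promotes the breakdown of the postsynaptic scaffold PSD-95 and synapse removal, was at 141, 110 and 138 CPM in Control-ASO and at 119, 109 and 102 CPM in Snhg11-ASO. As with Pcdh7, Control-ASO replicate 2 and Snhg11-ASO replicate 1 were the samples that made the groups overlap. The log2 fold change was -0.24 (SE 0.12, edgeR adjusted p = 0.666). Pcdh19 (ENSMUSG00000051323, chrX:133582860-133688987, minus strand), an X-linked gene whose mutation causes an epilepsy, was at 120.0, 85.3 and 75.3 CPM in Control-ASO and at 70.9, 87.5 and 87.7 CPM in Snhg11-ASO. Here Control-ASO replicate 1 stood above the other 5 samples. The log2 fold change was -0.19 (SE 0.19, edgeR adjusted p = 0.816) with that library and 0.02 (adjusted p = 0.985) without it, and -0.09 without Snhg11-ASO replicate 1. The remaining δ2 gene, Pcdh18, was low, with means of 5.02 ± 1.56 CPM in Control-ASO and 3.72 ± 1.07 CPM in Snhg11-ASO (SD, n = 3), and a log2 fold change of -0.43 (edgeR adjusted p = 0.755), or -0.22 without Snhg11-ASO replicate 1.

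Pcdh20 (ENSMUSG00000050505, chr14:88464743-88471396, minus strand), which is usually placed outside both subfamilies, was at 162, 203 and 136 CPM in Control-ASO and at 128, 191 and 176 CPM in Snhg11-ASO. Its means of 167 ± 33.9 and 165 ± 33.1 CPM (SD, n = 3) were nearly equal, with a log2 fold change of -0.02 (SE 0.20, edgeR adjusted p = 0.987). The sign was set by single libraries: it was 0.15 without Control-ASO replicate 2 and 0.14 without Snhg11-ASO replicate 1.

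Pcdh15 (ENSMUSG00000052613, chr10:73099342-74649737, plus strand) had the largest fold change and the longest annotated span of the 9. It was counted at 30.8, 16.9 and 31.0 CPM in Control-ASO and at 9.97, 13.0 and 11.4 CPM in Snhg11-ASO, from 906, 569 and 1043 read pairs and from 380, 543 and 498 read pairs. All 3 Snhg11-ASO samples lay close together below the lowest control, while Control-ASO replicate 2 lay well below the other 2 controls. The means were 26.2 ± 8.06 and 11.5 ± 1.51 CPM (SD, n = 3), a log2 fold change of -1.19 (SE 0.25). The edgeR p was 0.00208 before and 0.415 after adjustment, and the two-sided exact permutation p was 0.1, the smallest that 3 against 3 samples can give. DESeq2 gave the same log2 fold change, -1.19, with an adjusted p of 0.00268. Across 19 alternative settings the log2 fold change ran from -1.43 to -0.72 and was called in 4, all of them with DESeq2.

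**Figure D2:**
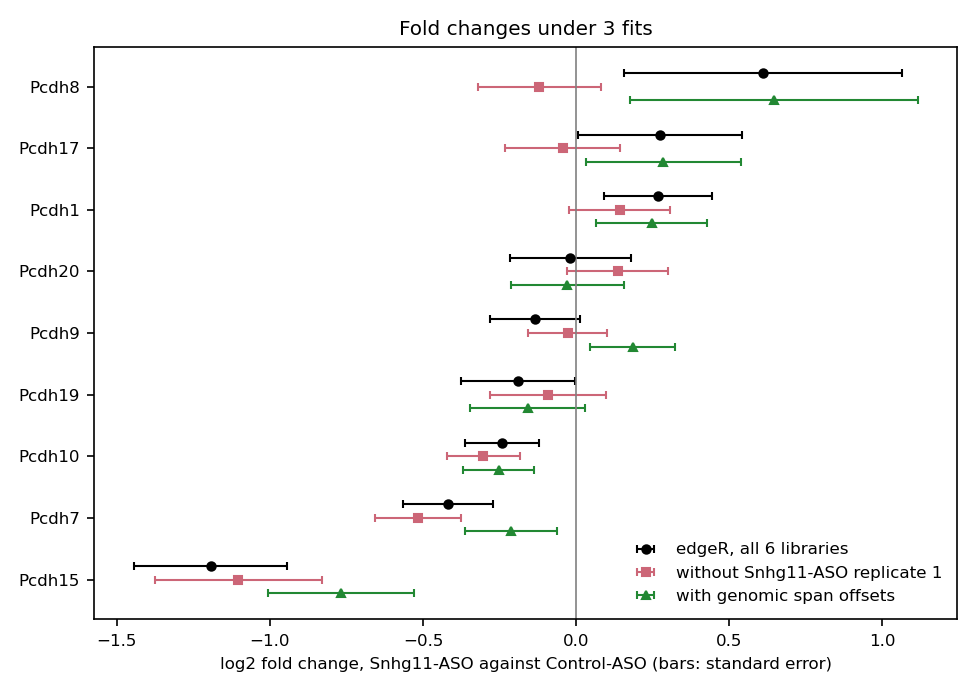
Log2 fold change of each member, Snhg11-ASO against Control-ASO, from edgeR with all samples, without Snhg11-ASO replicate 1 and with offsets for genomic span, with bars of 1 standard error. Pcdh8 moved from 0.61 to -0.12 without that replicate, and Pcdh15 stayed below 0 in each fit, at -0.77 with the offsets.

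Pcdh15 and Pcdh7 are also long genes, and long genes as a class were lower in Snhg11-ASO. Genes spanning over 500 kb from start to end, 223 of those tested, had a median log2 fold change of -0.37, 201 of them were below 0, and 51.1% were lower with no overlap between the groups. The class holds Pcdh15, at 1550 kb, and Pcdh9, at 877 kb. The span of Pcdh15 includes a stretch upstream of 73821867 that only 3 retained-intron transcripts of the gene cover. Its protein-coding transcripts begin at that position or later. The 763 genes of 200 to 500 kb, Pcdh7 at 415 kb among them, had a median of -0.13 and 22.1% were lower with no overlap. For genes of 50 to 200 kb, the class of Pcdh10 (57.2 kb), Pcdh17 (95.4 kb) and Pcdh19 (106 kb), the median was 0.01, and for those of 10 to 50 kb, that of Pcdh1 (26.1 kb), it was 0.04.

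With offsets that removed the trend of fold change on span from the fit, the log2 fold change of Pcdh15 was -0.77 (edgeR adjusted p = 0.627) and that of Pcdh7 was -0.21. Pcdh9 turned from -0.13 to 0.19, neither of them called. The median over the 9 members went from -0.13 to -0.03. Among the 57 genes of over 1000 kb, 42 were lower with no overlap and their median log2 fold change was -0.48, a smaller decrease than that of Pcdh15. Both the offsets and this class used the full annotated span of Pcdh15, not that of its protein-coding transcripts.

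**Figure D3:**
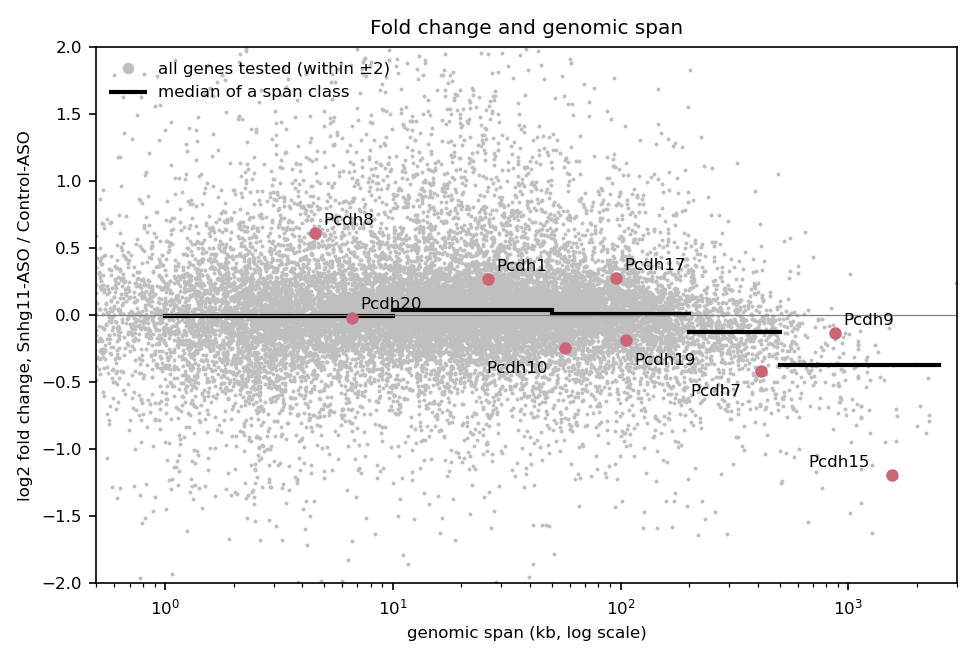
Log2 fold change, Snhg11-ASO against Control-ASO, against genomic span in kb (log axis) for all genes tested that lie within the axes (grey), with the median of each span class (black lines, the outer classes drawn to 1 and 2500 kb) and the 9 members (red). The class over 500 kb has a median of -0.37, with Pcdh9 above it and Pcdh15 below it.

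Several members hold other genes within their introns on the same strand, whose reads offer a second count from the same stretch of DNA, although unspliced RNA of the host gene can be counted as the nested gene. Of the 41 annotated transcripts of Pcdh15, 3 begin upstream of the RefSeq start at 73821867, all 3 retained-intron transcripts, and no protein-coding one does. The 3 genes nested in Pcdh15, Gm5778, Gm47098 and Gm15397, lie in that upstream stretch. Together they were counted at 80, 26 and 85 read pairs in Control-ASO and at 16, 18 and 24 in Snhg11-ASO. In CPM these were 2.72, 0.773 and 2.52 against 0.420, 0.431 and 0.550, lower in every Snhg11-ASO sample and, among controls, lowest in replicate 2, as Pcdh15 was. The log2 ratio of the means was -2.10, with a two-sided exact permutation p of 0.1. Tested alone, Gm5778 had a log2 fold change of -1.93 (edgeR adjusted p = 0.498) and Gm15397 one of -1.99 (adjusted p = 0.489), and Gm47098 was below the filter.

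The 14 genes nested in Pcdh7 summed to 39.1, 27.2 and 39.2 CPM in Control-ASO and to 35.6, 27.6 and 25.8 CPM in Snhg11-ASO. The groups overlapped, 11 of the 14 had a fold change below 0, and the log2 ratio of the summed means was -0.24 (two-sided exact permutation p = 0.3). The 4 genes nested in Pcdh9 summed to 31.9, 26.5 and 37.8 CPM in Control-ASO and 26.6, 34.1 and 31.3 CPM in Snhg11-ASO, with a log2 ratio of -0.06 (two-sided exact permutation p = 0.8). Most of that sum was C230086J09Rik, and the lowest of the 4 was the pseudogene Gm17922, with a log2 fold change of -0.74 (edgeR adjusted p = 0.598). On the other strand, Gm9748 shares 436 exonic bases with Pcdh8 and had 2 to 7 counts per library, and 1700027H10Rik shares 154 with Pcdh10 and had 0 to 1. Gm26851, which shares 57 exonic bases with Pcdh19, was not analysed here.

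Among known partners of the family, groups did not overlap for 1 of 11 WAVE genes, which was lower. Of 14 partners and regulators this held for 1 lower and 1 higher. Over all genes, 7.7% were lower and 7.73% higher without overlap. All 11 genes of the WAVE complex were tested, with 5 log2 fold changes below 0 and 6 above and a median of 0.05. One of them, Abi2, an adaptor subunit of the complex, did not overlap between groups, at 291, 321 and 292 CPM in Control-ASO and 203, 273 and 249 CPM in Snhg11-ASO. Its log2 fold change of -0.32 was the lowest of the list (edgeR adjusted p = 0.592), and that of Wasf2, another subunit, was the highest at 0.45 (adjusted p = 0.682). Without Snhg11-ASO replicate 1 they were -0.21 and 0.13. Of 14 partners and regulators, 2 were below 0 and 12 above, with a median of 0.10. Mef2c, a member of the MEF2 family of transcription factors that act upstream of Pcdh10, was at 171, 164 and 312 CPM in Control-ASO and at 105, 140 and 144 CPM in Snhg11-ASO. Its groups did not overlap, with a log2 fold change of -0.73 (edgeR adjusted p = 0.574). The other MEF2 genes of the list, Mef2a and Mef2d, were above 0, at 0.13 and 0.29, with overlapping groups. Mdm2, the ubiquitin ligase that marks PSD-95 for the breakdown in which Pcdh10 takes part, was at 41.7, 41.8 and 40.0 CPM in Control-ASO and at 76.3, 51.5 and 49.8 CPM in Snhg11-ASO. Here every Snhg11-ASO sample was above every control, with replicate 1 the highest, and the log2 fold change was 0.52 (edgeR adjusted p = 0.549), and 0.30 without that library. The highest of this list was Map2k3, a kinase of the p38 pathway, at 0.53 with all samples and -0.03 without Snhg11-ASO replicate 1.

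Of 10 genes of the tip link and its Usher complex, 7 passed the filter and Tmc1, Tmc2 and Ush1c did not. None of the 7 had an edgeR p under 0.05 and all of their groups overlapped. Cdh23, which encodes the other protein of the tip link, was at 3.53 ± 0.427 CPM in Control-ASO and 2.55 ± 0.813 CPM in Snhg11-ASO (SD, n = 3), with a log2 fold change of -0.46 (edgeR adjusted p = 0.710). Per length, Cib2, which encodes a calcium-binding protein of the transduction complex, was at 7.35 ± 1.09 RPKM and Myo7a at 2.46 ± 1.06 RPKM in Control-ASO (SD, n = 3). Both were above Pcdh15 at 1.10 ± 0.339 RPKM, a value that depends on its long merged exon length. In CPM the order was reversed, at 26.2 ± 8.06 for Pcdh15, 21.1 ± 9.11 for Myo7a and 10.5 ± 1.57 for Cib2. The lowest fold change of the list was that of the motor protein gene Myo7a at -0.63 (edgeR adjusted p = 0.833), and -1.43 without Snhg11-ASO replicate 1. The highest was that of Myo15 at 0.48 (adjusted p = 0.840), which became -0.42 without that library. Of the protocadherins outside the 9, Pcdh12 was under 1 CPM in every library. The 58 clustered protocadherins were all tested, 36 below and 22 above 0, with a median log2 fold change of -0.12. Of these 5 were lower and 0 higher at an unadjusted edgeR p under 0.05, where 4.43% of all genes were lower and 3.68% higher. Groups did not overlap for 9 of them lower and 6 higher, against 7.7% and 7.73% of all genes, and the smallest adjusted p was 0.543.

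Marker lists of cell types were read in the same samples. The 4 pan-neuronal markers summed to 2060, 2174 and 2321 CPM in Control-ASO and to 1764, 1972 and 1812 CPM in Snhg11-ASO, lower with no overlap. Taken singly, Syt1 and Tubb3 did not overlap between groups, while Rbfox3 and Snap25 did. Most of the sum was Snap25 and Syt1. Syt1 spans 513 kb and Rbfox3 422 kb, within the long gene classes described above. The 6 interneuron markers were likewise lower in sum, at 411 to 453 against 340.2 to 388 CPM. Taken singly, 3 of the 6 were lower without overlap, against 7.7% of all genes. With all samples the 5 markers of oligodendrocyte precursors, which are known to express Pcdh15, were each below 0 on the log2 scale. Their summed levels were 122 to 133 CPM in Control-ASO and 63.7, 101 and 122 CPM in Snhg11-ASO, so the groups overlapped. The lowest of these sums was that of replicate 1, in which Gpr17 was at 1.23 CPM against 26.3 to 49.3 CPM in the other 5 libraries. The median log2 fold change of the list was -0.42, from -0.80 for Gpr17 to -0.19 for Pdgfra. Without Snhg11-ASO replicate 1, Gpr17 was at -0.25, Cspg4 at -0.31, Pdgfra at -0.17 and C1ql1 at -0.07, while Neu4 was above 0 at 0.05. The defining precursor marker Pdgfra was at 58.2 ± 3.87 CPM in Control-ASO and 50.9 ± 2.36 CPM in Snhg11-ASO (SD, n = 3), with no overlap. Another precursor marker, Cspg4, was at 26.2, 18.5 and 18.0 CPM in Control-ASO and at 10.3, 15.6 and 17.9 CPM in Snhg11-ASO, with replicate 3 of both groups nearly equal. The part of these lists in the values of Pcdh15, Pcdh7 and Pcdh10 was not tested.

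Choroid plexus markers, which belong to tissue of the adjacent ventricle, varied more than any member. Their 6 genes summed to 1886, 36.2 and 1220 CPM in Control-ASO and to 1291, 123 and 67.2 CPM in Snhg11-ASO. The controls with high choroid plexus signal, replicates 1 and 3, were also those with high Pcdh15, and Snhg11-ASO replicate 1, the other library with over 1000 CPM, had the lowest Pcdh15. Pcdh7 and Pcdh10 were also higher in Control-ASO replicates 1 and 3 than in replicate 2, but highest in replicate 1 within Snhg11-ASO. With the choroid plexus level as a term in the fit, the log2 fold change of Pcdh15 was -1.07 (edgeR adjusted p = 0.441). That of Pcdh7 was -0.37 (adjusted p = 0.512) and that of Pcdh10 -0.20 (adjusted p = 0.613). Their unadjusted edgeR p went from 0.0242 to 0.00709 and from 0.0869 to 0.0488.

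The activity-induced genes were higher in every Snhg11-ASO sample in sum, at 319, 238 and 299 CPM against 196, 144 and 187 CPM in Control-ASO. Of this list Fos was at 8.91, 8.68 and 8.22 CPM in Control-ASO and at 45.9, 16.2 and 21.9 CPM in Snhg11-ASO. Fos was highest in replicate 1, the library in which the activity-induced Pcdh8 was also highest. Egr1 and Junb were also highest there, Egr1 at 65.2 CPM against 42.9 and 45.7 CPM in Snhg11-ASO replicates 2 and 3. Junb was at 71.7 CPM against 32.6 and 40.8 CPM. The remaining genes of the list differed: Arc was at 99.2 CPM in that library against 115 and 144 CPM in Snhg11-ASO replicates 2 and 3. Nr4a1 was at 32.0 CPM in it against 23.4 and 35.8 CPM. Npas4 was at 4.46 CPM in it, below every control (7.72, 4.87 and 6.89 CPM). The groups overlapped for Npas4 and Nr4a1. In Snhg11-ASO replicates 2 and 3 Pcdh8 was at 31.4 and 30.3 CPM, within the control range. Markers of the thalamus, which lies below the dorsal hippocampus, were also higher in sum in Snhg11-ASO, at 47.0 to 52.1 against 31.1 to 40.7 CPM. Of the 3 genes Prkcd alone did not overlap between groups, at 31.2 to 35.0 against 17.6 to 21.4 CPM (DESeq2 adjusted p = 1.55e-05, edgeR adjusted p = 0.304), while Tcf7l2 and Lhx9 had log2 fold changes of 0.19 and 0.03. Microglial markers were lowest in Snhg11-ASO replicate 1, at 135 CPM against 251 to 462 CPM in the other 5 libraries. Summed markers of dentate granule cells, CA1, CA2 and CA3 pyramidal cells, astrocytes, oligodendrocytes and endothelial cells were detected in every library, with overlapping groups. The part of these lists in the values of the members was not tested.

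**Figure D4:**
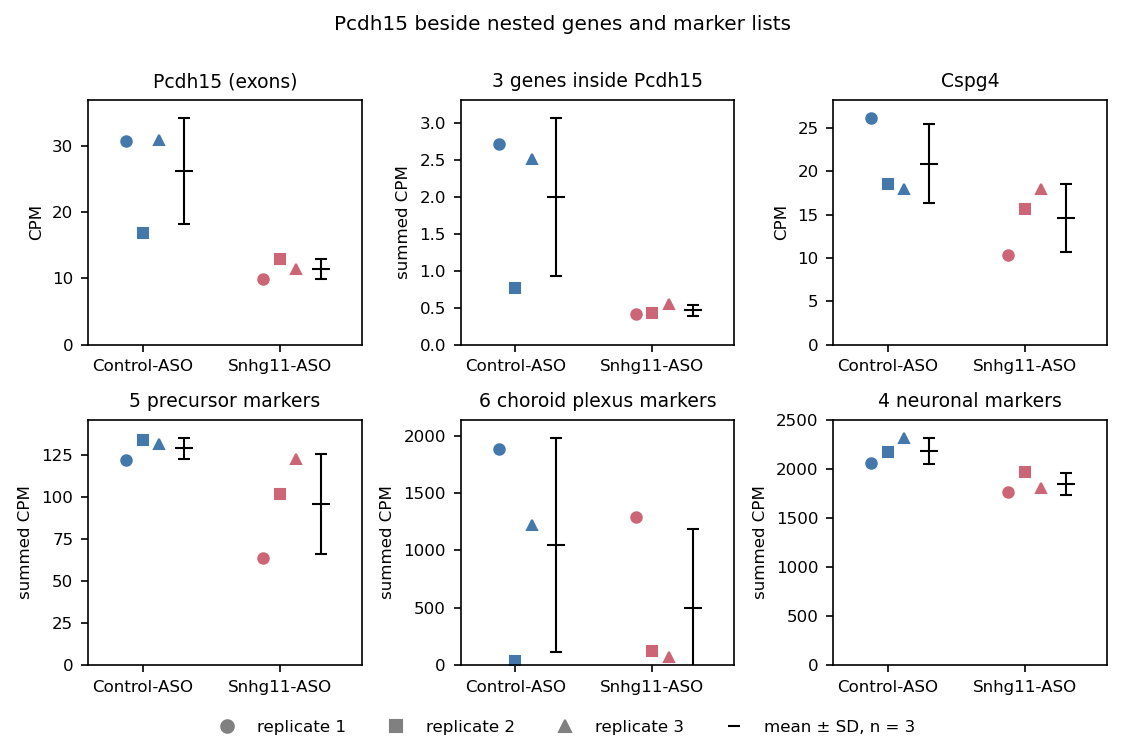
CPM per sample, on linear axes from 0, of Pcdh15, the summed genes nested in its upstream introns, the precursor marker Cspg4 and the summed marker lists of precursors, choroid plexus and neurons, with the mean ± SD (n = 3) and the lower end of the bar cut at 0 where it would fall below. Pcdh15 and the nested genes were lower in all 3 Snhg11-ASO samples, while the choroid plexus sum ran from 36.2 to 1886 CPM within Control-ASO.

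Across the 6 samples the members did not share 1 pattern. Pearson correlations of log2 CPM between members, given as a description over 6 libraries that include both groups and share Snhg11-ASO replicate 1, were highest between Pcdh7 and Pcdh10 (r = 0.963), between Pcdh8 and Pcdh17 (r = 0.910) and between Pcdh7 and Pcdh15 (r = 0.859). Pcdh8 and Pcdh9 ran in opposite directions (r = -0.823). Over the 5 libraries without Snhg11-ASO replicate 1 these were 0.964, 0.680, 0.988 and -0.575 in the same order. The gene outside the family most like each member was Sclt1, which encodes a centriolar protein, for Pcdh15 (r = 0.997), Gm43268 for Pcdh7 (r = 0.992) and Frem1, an extracellular matrix gene, for Pcdh10 (r = 0.993). For Pcdh8 it was the metalloprotease gene Adamts3 (r = 0.999), for Pcdh17 the galectin gene Lgals4 (r = 0.997), and for Pcdh1 the kinase gene Mink1 (r = 0.997). For Pcdh9 it was Dnm1l, a GTPase of mitochondrial fission (r = 0.992), for Pcdh19 Gm49600 (r = 0.992) and for Pcdh20 Pgpep1l (r = 0.995). Each was the highest correlation among all genes tested, over few libraries. Of these genes, Lgals4 was at only 0.684 to 1.94 CPM, Gm49600 at 1.10 to 2.11 CPM and Pgpep1l at 0.446 to 1.25 CPM.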

How the data were processed

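Strand-specific, ribosomal RNA-depleted libraries were sequenced as read pairs of 50 bases. The authors aligned them with STAR 2.5.2a to mm10 (GRCm38) and deposited raw counts per gene and strand for each sample. The column for the reverse strand was used, which held 96.2% to 96.8% of stranded counts. Lines that name no gene (43.5% to 51.4% of all pairs) were left out. Of 55401 gene IDs, 55141 were matched to GENCODE M21, which gave symbols, positions and merged exon lengths.

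Counts were filtered with filterByExpr (minimum count 10), scaled by TMM (0.982 to 1.02) and fitted with edgeR 4.0.16 (R 4.3.3), using glmQLFit and glmQLFTest with Benjamini-Hochberg adjustment over 19969 genes. CPM values carry the TMM scaling, and RPKM divides them by merged exon length. Log2 CPM used a prior count of 2. Permutation tests ran over all 20 splits. DESeq2 1.42.0 was the other tool. The study's methods remove 1 Snhg11-ASO sample that they do not name, so all 6 were kept and each was left out in turn. Genomic span offsets were loess fits (span 0.3) of each sample's deviation on span. Mitochondrial genes took 23.7% to 28.2% of counts. Scripts were tested on simulated counts.

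Deviations of same-numbered samples correlated at 0.297, 0.179 and 0.103, each above the 0.1 set as the bar for pairing, although Control-ASO 2 with Snhg11-ASO 3 reached 0.188. No label ties the numbers. The values given are from the fit without the block and from unpaired splits, and the fit with the replicate block was an alternative. Named genes were Snhg11, the 9 members, genes of the WAVE, partner, tip link and other non-clustered protocadherin lists with an unadjusted p under 0.05 or groups without overlap, the lowest and highest of each such list, genes overlapping a member, and the gene best correlated with each. Members, lists and tests were chosen with earlier results of these data known. Marker genes were named after their values were seen. The fit with the choroid plexus level was added after seeing the data.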

Additional observations from a re-analysis of the deposited data

How the results depend on the processing

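Over 19 alternatives, 171 values for the 9 members were recomputed: 156 kept their direction and side of the threshold, 5 were newly called and 10 changed sign. The 5 calls, 4 of Pcdh15 and 1 of Pcdh7, were all by DESeq2. With genomic span offsets the log2 fold change of Pcdh9 was 0.19, with or without the replicate block. Leaving out 1 sample in edgeR gave ranges of -0.12 to 0.88 for Pcdh8, -0.044 to 0.47 for Pcdh17, -0.33 to 0.024 for Pcdh19 and -0.15 to 0.15 for Pcdh20. Without Snhg11-ASO replicate 1, DESeq2 gave -0.12 for Pcdh8, -0.047 for Pcdh17 and 0.13 for Pcdh20. DESeq2 called 1 member and 258 genes with all samples. With Snhg11-ASO replicate 1, 2 or 3 left out it called 2, 1 and 1 members and 347, 275 and 223 genes, while edgeR called 0 members and 2 genes without replicate 1 and 0 of both without any other sample. No gene of the partner lists was called by either tool. With the replicate block the log2 fold change of Pcdh15 was -1.15 (edgeR adjusted p = 0.484), and the block changed no member's call after adjustment. The unadjusted edgeR p of Pcdh1, higher in Snhg11-ASO, was 0.0374 with the block and 0.170 without it. That of Pcdh17, also higher, was 0.0929 and 0.340. The cause of the difference between the tools was not tested. Pcdh15, the member with the fewest reads per length, rested on 380 to 1043 read pairs per library, and with 3 samples a group no exact permutation p could fall below 0.1.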
